A study of Mus musculus with 4 samples.

Results

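Among T cells sorted from mouse sarcomas as negative for CD4 and CD8, 898 of 21079 (4.26%) held at least 1 transcript of Cd8b1, the gene of the CD8 beta chain. These Cd8b1+ cells were chosen by their measured counts. A cell had at least 200 genes, at most 20000 unique molecular identifiers (UMIs, each standing for 1 captured transcript), at most 10% of UMIs from mitochondrial genes, at least 1 UMI of Cd3e, at least 1 of Cd8b1 and none of Foxp3. The other 20181 cells within the same limits, with Cd3e but without Cd8b1, are called Cd8b1- cells and served as the comparison within each library. Cd3e, Cd8b1 and Foxp3 fixed the groups, so their levels are given as descriptions with no test.

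CD8 on most cytotoxic T cells is a heterodimer of an alpha and a beta chain that binds MHC class I and brings the kinase Lck to the T cell receptor. The beta chain reaches the cell surface only when paired with the alpha chain, whereas the alpha chain can form a homodimer that some innate-like and intestinal T cells carry. Antibodies used to sort CD8 cells commonly bind the alpha chain, as does the CD8 clone listed in the methods of the study. In the mouse, the genes lie next to each other on chromosome 6, with Cd8b1 at chr6:71322788-71337494 and Cd8a at chr6:71373427-71379173 on the plus strand (GRCm38, GENCODE vM21), and no other annotated gene overlaps either.

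The study sequenced single UTCαβ, unconventional αβ T cells, from sarcomas that were induced in male C57BL/6J mice by subcutaneous 3-methylcholanthrene. The groups were 2 biological replicates of Csf3r+/+ mice and 2 of Csf3r-/- mice, which lack the receptor for granulocyte colony-stimulating factor in all cells. Cells of either genotype were depleted of CD11b+, CD4+ and CD8+ cells on magnetic columns and then sorted by flow cytometry for CD45 and TCRβ, and against CD11b, TCRγδ, CD4 and CD8. Each replicate gave 1 library of 3′ transcript counts, and the libraries are named by genotype and by the number at the end of their barcodes, which the labels do not tie to an animal. Csf3r itself had 0 UMIs in the Cd8b1+ cells of all 4 libraries, and between 1 and 3 UMIs in the Cd8b1- cells of each, so its counts in these T cells did not check the genotype labels.

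The deposited libraries held 3625 and 11512 barcodes with 12483656 and 38559291 UMIs (Csf3r+/+ libraries 1 and 2), and 7178 and 10210 barcodes with 18136748 and 23234493 UMIs (Csf3r-/- libraries 1 and 2). Between 33 and 163 barcode sequences recurred in any pair of libraries, and 0 of these were Cd8b1+ in both. The Cd8b1+ cells were somewhat deeper than the Cd8b1- cells of their library, with median UMIs of 3152 against 3049, 3439 against 3013, 2731 against 2213.5, and 2168.5 against 1970. A cell with more UMIs has more chances to show 1 of Cd8b1, so this difference is in part set by the selection. Csf3r+/+ library 2 stood apart from the other 3 libraries in its Cd8b1+ cells, with less Tmem176b and Cxcr6 and more Klrd1, and its Cd8b1- cells were also the lowest for Tmem176b and Cxcr6. In Cd8b1- cells Klrd1 and Ccl5 were high in both Csf3r+/+ libraries. Several results that rest on library 2 are given with and without it.

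The share of Cd8b1+ cells was 4.06% in Csf3r+/+ library 1 (115 of 2836; exact 95% binomial interval 3.36 to 4.85%) and 1.45% in Csf3r+/+ library 2 (92 of 6331; 1.17 to 1.78%). In the Csf3r-/- libraries it was 6.68% (347 of 5193; 6.02 to 7.40%) and 5.12% (344 of 6719; 4.60 to 5.67%). Both Csf3r-/- libraries were therefore above both Csf3r+/+ libraries, with means of 5.90 ± 1.10% and 2.75 ± 1.84% (SD, n = 2 each) that differed by 3.15 percentage points (1.85 points without Csf3r+/+ library 2). An exact two-sided permutation test gave p = 0.333, the smallest value that 2 libraries against 2 allow, so the design could not place this difference beyond the spread between libraries. Intervals and limits here cover counting error only. With every cell thinned to 1500 UMIs, the shares were 1.95%, 0.694%, 3.87% and 3.56%, in the same order. As a background, 0 of 290 barcodes without any Cd3 gene but with macrophage or B cell transcripts held a Cd8b1 UMI (median 2476.5 UMIs). This allows a share of up to 1.03% pooled over the libraries, under the unthinned share of each library. By library these barcodes were 47, 72, 116 and 55, so the limit of a single library is wider. The pooled limit therefore does not place each library above its own background. Of these barcodes 208 had 1500 UMIs or more, and 0 of them held Cd8b1 after thinning, which allows up to 1.44%. The thinned share of Csf3r+/+ library 2 lay under this limit, and those of the other 3 libraries lay above it. This limit is pooled over the libraries too, and single libraries were not set against their own background.

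The threshold of 1 UMI decided most memberships. Of the Cd8b1+ cells, 778 (86.6%) held exactly 1 Cd8b1 UMI, 85 held 2 and 35 held 3 or more, while all cells just outside the threshold were at 0. The share of cells with at least 2 Cd8b1 UMIs was 0.458% and 0.316% in the Csf3r+/+ and 1.02% and 0.506% in the Csf3r-/- libraries. Summed over all T cells within the limits, Cd8b1 reached 13.4 and 5.60 CPM (counts scaled to a sum of 1000000 UMIs) in the Csf3r+/+ and 29.6 and 25.3 CPM in the Csf3r-/- libraries. Cd8a reached 1.94, 1.72, 2.42 and 1.89 CPM, so that 1081 Cd8b1 UMIs faced 123 of Cd8a, a ratio of 8.79.

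Cd8a, which the selection did not use, was not detected in most Cd8b1+ cells. A count of 0 in a cell does not show that it lacks the transcript, since most members held a single UMI of Cd8b1 itself. It was detected in 0 of 115 cells of Csf3r+/+ library 1 (which allows up to 2.61%), in 14 of 92 of Csf3r+/+ library 2 (15.2%), and in 6 of 347 (1.73%) and 8 of 344 (2.33%) of the Csf3r-/- libraries. In total, 28 Cd8b1+ cells (3.12%) held a Cd8a UMI and 870 did not. Among the Cd8b1- cells of the same libraries, 17, 13, 12 and 8 cells held one, 50 of 20181 in all (0.248%). Thinned to 1500 UMIs, the share with Cd8a averaged 2.48 ± 3.51% of Cd8b1+ cells and 0.179 ± 0.168% of Cd8b1- cells (SD, n = 4), and 0 of the 208 background barcodes of that depth held Cd8a (1 of 290 unthinned). Csf3r+/+ library 2 carried most of this mean, and without it the thinned shares were 0.749 ± 0.674% and 0.212 ± 0.190% (n = 3). In summed counts Cd8a stood at 0, 66.6, 14.7 and 18.8 CPM in Cd8b1+ cells and at 2.02, 0.570, 1.32 and 0.803 CPM in Cd8b1- cells, higher in 3 of 4 libraries, and edgeR's quasi-likelihood test placed the log2 fold change at 4.32 ± 0.55 (SE; Benjamini-Hochberg adjusted p = 1.98e-05). Without Csf3r+/+ library 2 it was 3.29 ± 0.54 (adjusted p = 0.000737). DESeq2 gave Cd8a no adjusted p. Thus Cd8a was higher in the Cd8b1+ cells, yet it was detected in few of them, and the cells are called here by the Cd8b1 transcript that chose them.

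Cd8a was detected most often in the cells with the most Cd8b1. It was found in 6 of 778 cells with 1 Cd8b1 UMI (0.771%), 6 of 85 with 2 (7.06%) and 16 of 35 with 3 or more (45.7%). In the last class the libraries differed, with 0 of 3, 8 of 9, 4 of 13 and 4 of 10 cells. These cells were also deeper, with a median of 4258 UMIs against 2555.5 at 1 Cd8b1 UMI, and the part of depth in this order was not tested. Summed over libraries, Cd8a was at 2.87 CPM at 1, 40.5 CPM at 2 and 231 CPM at 3 or more Cd8b1 UMIs, against 1.02 CPM in Cd8b1- cells. Csf3r+/+ library 2 supplied 8 of the 16 cells with Cd8a in the last class. Within it the levels were 9.27, 146 and 442 CPM, and in the Csf3r-/- libraries 1.06, 27.5 and 181 CPM and 3.65, 27.7 and 204 CPM.

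**Figure D1:**
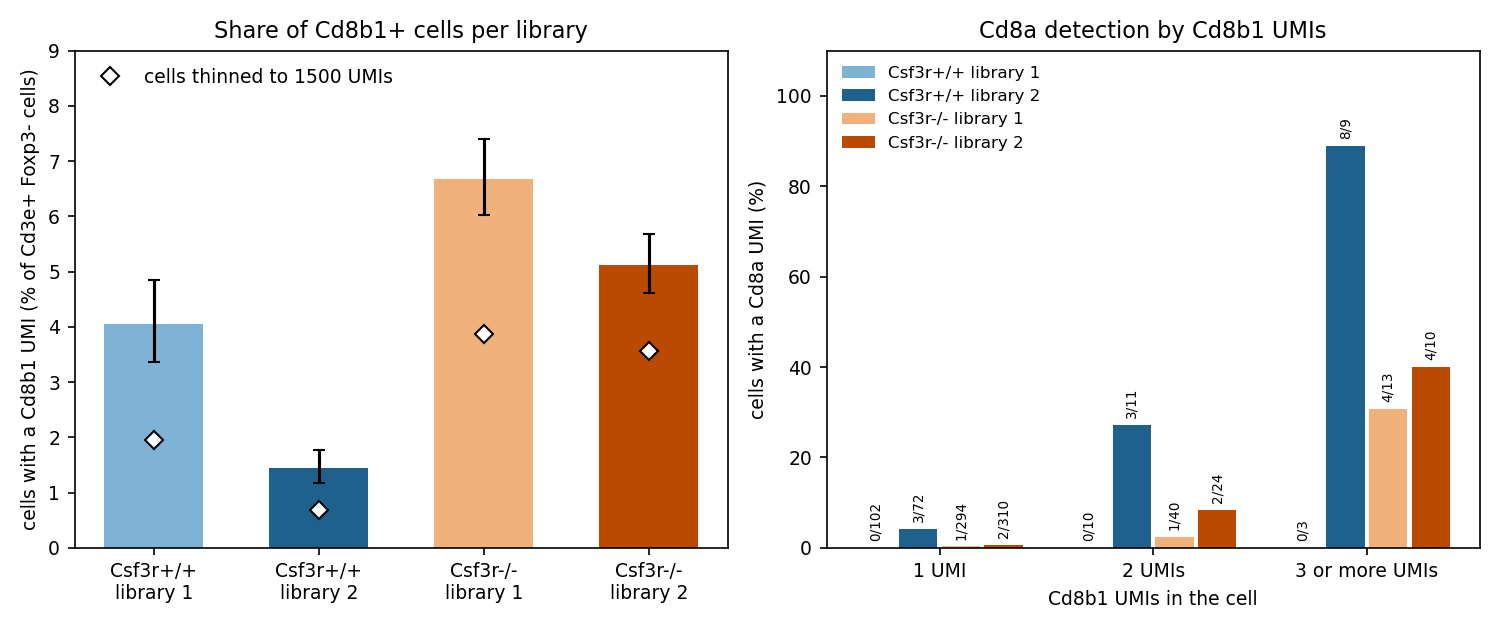
Left, percent of Cd3e+ Foxp3- cells with a Cd8b1 UMI in each library (bars, with exact 95% binomial intervals) and after thinning each cell to 1500 UMIs (open diamonds); both Csf3r-/- libraries lie above both Csf3r+/+ libraries. Right, percent of Cd8b1+ cells with a Cd8a UMI by the number of Cd8b1 UMIs in the cell and by library, with counts above the bars; Cd8a was found in 0.771% of cells with 1 Cd8b1 UMI and in 45.7% of cells with 3 or more.

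The 28 Cd8b1+ cells with Cd8a held more Ccr7 and Dapl1 than the 870 without it, and less Gzmb, Tmem176b and Cxcr6. Csf3r+/+ library 2 supplied 14 of the 28 cells and 78 of the 870, so values are compared within libraries. Ccr7, the chemokine receptor for lymph node entry, stood at 595 against 116 CPM in that library and at 443 against 41.6 CPM and 171 against 35.6 CPM in the Csf3r-/- libraries. Dapl1 was at 311 against 12.2 CPM, 406 against 7.08 CPM and 205 against 4.45 CPM, although in Csf3r-/- library 1 all of it came from 1 cell. Both genes were higher in the cells with Cd8a in each of the 3 libraries that had such cells. Lef1, a transcription factor of naive T cells, differed less, with 272 against 128 CPM, 73.8 against 29.2 CPM and 51.3 against 30.0 CPM. Its relative Tcf7 stood at 207 against 152 CPM, 369 against 94.7 CPM and 85.5 against 51.2 CPM.

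Effector genes differed in direction between libraries, apart from Gzmb. Nkg7 was at 2325 against 540 CPM and 1591 against 758 CPM in the Csf3r-/- libraries, but at 1191 against 1566 CPM in Csf3r+/+ library 2. Ccl5 stood at 3211 against 555 CPM and 1043 against 885 CPM in the former and at 3857 against 5738 CPM in the latter. Both were thus higher in cells with Cd8a in the Csf3r-/- libraries and lower in Csf3r+/+ library 2. Klrd1 stood at 582 against 564 CPM in Csf3r+/+ library 2 and at 73.8 against 103 CPM and 154 against 92.3 CPM in the Csf3r-/- libraries. Gzmb was lower in all 3 libraries, at 194 against 463 CPM, 73.8 against 166 CPM and 154 against 218 CPM. Tmem176b (38.8 against 235 CPM, 148 against 1280 CPM and 616 against 1325 CPM) and the homing receptor Cxcr6 (116 against 454 CPM, 406 against 2511 CPM and 325 against 2526 CPM) were lower too. Macrophage transcripts moved with Cd8a in 1 library. In Csf3r-/- library 2 the 8 cells with Cd8a held 3043 UMIs of macrophage genes, 2641 of them in 3 cells, and 4 of the 8 held 10 or more. The part of these transcripts in the values above was not tested. These are sums over few cells, the split was made after the values were seen, and no test was run. Rag1 and Rag2, which recombine the receptor genes of thymocytes, were at 0 in all Cd8b1+ cells, and Cd4 was found in 3 of them, all in Csf3r-/- library 2.

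For the remaining genes, UMIs were summed per library over Cd8b1+ and over Cd8b1- cells and tested with edgeR within libraries. Of 10845 genes, 33 were higher in Cd8b1+ cells (0.304%) and 108 lower (0.996%), together 141 (1.30%), at an adjusted p under 0.05. DESeq2 called 5 higher and 32 lower. Among cells with at least 2 Cd8b1 UMIs the balance was turned, with 61 higher and 53 lower in edgeR, 47 of them among the 141. Csf3r+/+ library 1 had only 13 such cells, so the turned balance says little about that library. For all Cd8b1+ cells, the p-values measure how far the difference within a library varied across these 4 libraries. Of the gene lists described here, receptors shared with NK cells held the most calls, all of them lower in Cd8b1+ cells. Of 28 listed NK receptor and adaptor genes, 25 could be tested, of which 17 fell, 0 rose and 8 did not pass, with a median log2 fold change of -1.11 against -0.02 over all genes tested. Summed over the list, the Cd8b1+ cells held 1437, 3895, 869 and 1247 CPM (Csf3r+/+ libraries 1 and 2, Csf3r-/- libraries 1 and 2), and the Cd8b1- cells 4677, 5246, 1943 and 1915 CPM. The sum was lower in Cd8b1+ cells in all 4 libraries, with the ratio nearest to 1 in Csf3r+/+ library 2.

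Klra9, which encodes a receptor of the Ly49 family that binds MHC class I, had the largest fall among the 10 genes named as lower, at 29.8, 96.2, 11.2 and 26.1 CPM in Cd8b1+ cells and 142, 242, 58.0 and 85.2 CPM in Cd8b1- cells. The Cd8b1+ value was below the Cd8b1- value in every library, although the ranges across libraries overlapped. The log2 fold change was -1.86 ± 0.14 (SE; edgeR adjusted p = 2.88e-09). Klrb1c, the gene of NK1.1, followed with 32.3, 123, 19.9 and 25.1 CPM against 202, 224, 60.8 and 45.8 CPM (log2 fold change -1.46 ± 0.17). Klrd1, whose product CD94 pairs with NKG2 chains, stood at 134, 567, 102 and 96.1 CPM against 551, 698, 211 and 203 CPM (-1.08 ± 0.14). Its partner Klrc1 (NKG2A) differed by -1.22 and Klre1 by -1.29, and the further Ly49 genes Klra1, Klra7 and Klra6 by -1.33, -1.24 and -1.11. Ly49 genes are close copies of each other, so reads may be split between them and the values of single members are uncertain. Klrk1 (NKG2D), the list's most abundant gene, changed by -0.73, with 201, 826, 243 and 374 CPM against 571, 1070, 373 and 507 CPM.

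The fall in NK receptors held under other definitions of the cells, with fewer calls in some. At 2 or more Cd8b1 UMIs, 10 of 25 tested genes fell (median -1.24). Between 14 and 18 listed genes fell when each library was left out in turn, 18 without Csf3r+/+ library 2 and 18 without all cells that held Cd8a. Within cells that had a Tmem176b UMI, 13 of 25 tested genes fell (median -0.87), and within cells without one 13 of 24 (median -0.84). Csf3r+/+ library 1 had only 16 Cd8b1+ cells without a Tmem176b UMI and 13 with 2 or more Cd8b1 UMIs. The fits to those cells therefore say little about that library. DESeq2 called 10 of the 25 lower, and among its exceptions were Klrd1 (adjusted p = 0.101), Klra7 (0.056) and Klra1 (0.219). It gave no adjusted p for Klra5, Klrb1a and Klri2, which edgeR called lower. A fit without the library as a block called 0 of 10119 genes in edgeR, with 152 at an unadjusted p under 0.05.

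Cytotoxic effector genes were lower as well. Of 16 listed genes, 13 could be tested, of which 7 fell and 0 rose (median log2 fold change -0.82). Of all genes tested, 0.996% fell and 0.304% rose. Gzmb, the gene of granzyme B, stood at 430, 412, 163 and 214 CPM in Cd8b1+ cells and at 1060, 901, 293 and 350 CPM in Cd8b1- cells, a log2 fold change of -1.07 ± 0.08 (SE; edgeR adjusted p = 2.88e-09). The Cd8b1+ value was the lower one in all 4 libraries. Gzma fell by 1.59 and the protease inhibitors Serpinb9 and Serpinb6b by 0.84 and 0.82 on the log2 scale, Ctsw (cathepsin W) by 0.81, Fasl by 0.73 and the granule gene Nkg7 by 0.54. DESeq2 called 4 of the 13, with Nkg7 (adjusted p = 0.997) and Fasl (0.056) among those it did not call, and both lost the edgeR call without Csf3r-/- library 1. For Gzma DESeq2 gave no adjusted p. Prf1, the gene of perforin, was close to its detection limit, at 7.46, 17.3, 3.46 and 7.31 CPM against 8.95, 9.29, 6.27 and 5.69 CPM, and did not pass (0.02 ± 0.34).

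Type 1 cytokines and chemokines followed the same direction, with 5 of 16 genes lower and 0 higher in edgeR (median -0.53), where 0.996% of all genes were lower. DESeq2 called 1 of the 16, Ccl5. Ccl5, a chemokine of effector and memory T cells, was the most abundant of them, with 2414, 5380, 617 and 895 CPM against 5041, 7036, 1934 and 1708 CPM (-1.07 ± 0.10; edgeR adjusted p = 4.56e-08). Ifng, the gene of interferon γ, stood at 37.3, 185, 36.3 and 38.6 CPM against 196, 296, 50.4 and 78.7 CPM (-1.07 ± 0.16). The chemokine gene Xcl1 differed by -0.83, the chemokine receptor gene Cxcr3 by -0.66 and Tbx21, which encodes the type 1 regulator T-bet, by -0.92. Without Csf3r-/- library 1 Cxcr3 and Tbx21 lost the edgeR call, as did Tbx21 without Csf3r+/+ library 2. The adjusted p of DESeq2 was 0.276 for Ifng, 0.296 for Xcl1, 0.129 for Cxcr3 and 0.175 for Tbx21. Eomes, its relative, did not pass (0.06 ± 0.23), and neither did Tnf (0.01 ± 0.20). Il2rb, the shared beta chain of the IL-2 and IL-15 receptors, was 0.64 lower on the log2 scale and the only one of 7 tested common gamma chain receptor genes that passed.

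**Figure D2:**
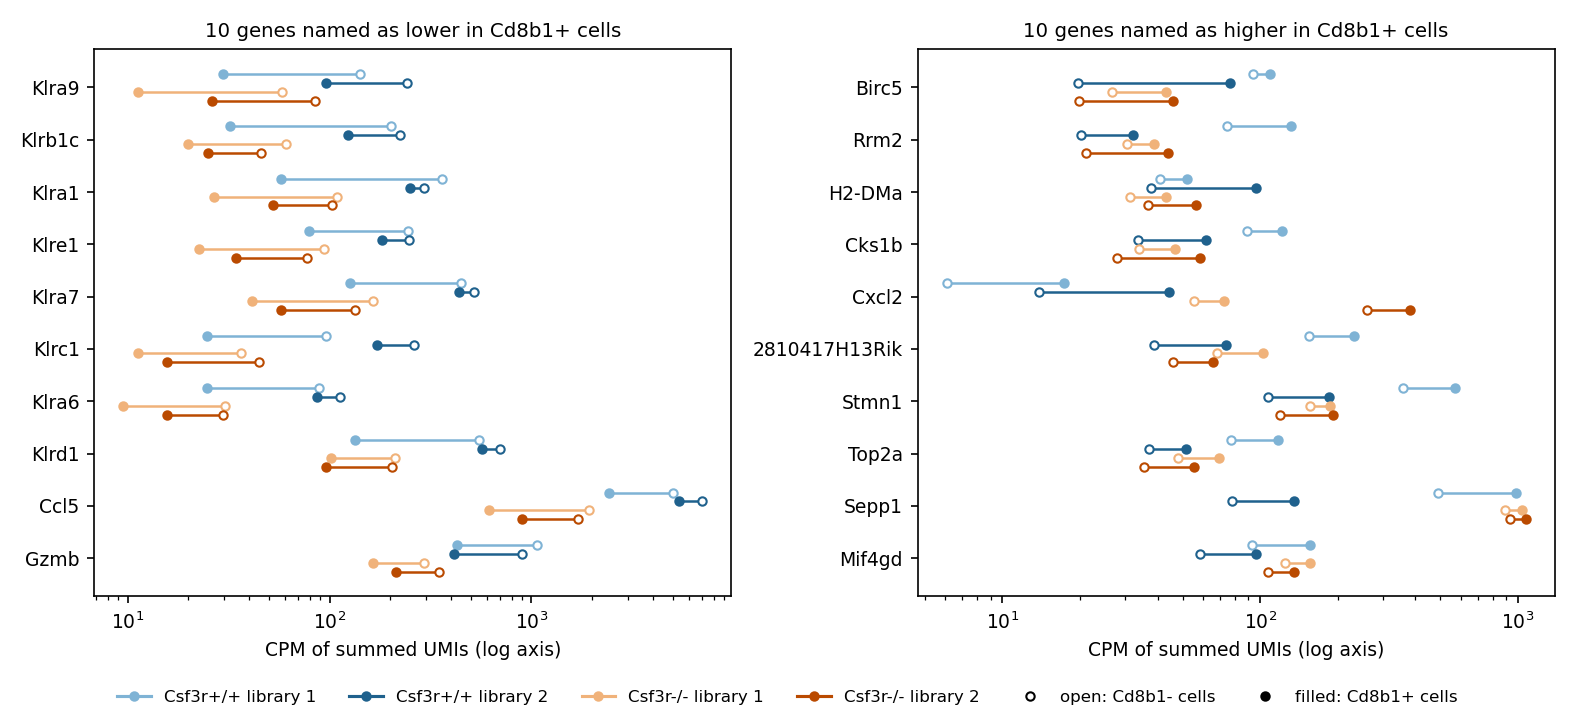
CPM of summed UMIs (log axis) in Cd8b1- cells (open) and Cd8b1+ cells (filled) of each library, for the 10 genes named as lower (left) and the 10 named as higher (right) by a fixed rule of size. Each line joins the values of 1 library. The rule also asks for 1 direction in all 4 libraries. By that choice the filled point lies to the left in the left panel and to the right in the right panel.

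Fewer genes were higher than lower in Cd8b1+ cells, except at 2 or more Cd8b1 UMIs, where 11 of 14 macrophage genes were among the 61 of 10419 genes that were higher. Of the 10 named by the rule, which asks for at least 50 CPM, 6 act in cell division. Of these 10, Stmn1 and 2810417H13Rik kept the edgeR call whichever library was left out and 8 lost it at least once, while the 10 named as lower all kept it. DESeq2 called 5 of the 10 (Birc5, Rrm2, Cks1b, 2810417H13Rik and Stmn1), and Top2a had an adjusted p of 0.056. Stmn1, which regulates microtubules, stood at 569, 185, 187 and 192 CPM in Cd8b1+ cells and at 359, 107, 157 and 120 CPM in Cd8b1- cells (log2 fold change 0.50 ± 0.08 SE; edgeR adjusted p = 0.00088). Birc5 (survivin), needed for chromosome segregation, had the largest change of the 10, with 109, 76.5, 43.2 and 46.0 CPM against 93.7, 19.6, 26.6 and 19.8 CPM (0.80 ± 0.18). Its call was lost without Csf3r+/+ library 2 (0.60; edgeR adjusted p = 0.0753) and without Csf3r-/- library 2 (0.71; 0.0533). Rrm2, which makes deoxynucleotides, differed by 0.65, Cks1b by 0.61, 2810417H13Rik (now Pclaf) by 0.55 and Top2a by 0.50. Of 51 tested G2 and mitosis genes, 5 rose and 0 fell (median 0.45, 45 values above 0), and of 41 S-phase genes 1 rose, Rrm2 (median 0.10). Of all genes tested, 0.304% rose. Depth moved with this result, and different ways of matching it gave different counts. Thinned to 1500 UMIs per cell, 2 of 44 tested G2 and mitosis genes passed and the median was 0.45. Without the cells of the top 5% of UMIs 7 of 47 passed (median 0.48). When the Cd8b1- cells were weighted to the UMI distribution of the Cd8b1+ cells, 0 of 51 G2 and mitosis genes passed in edgeR (median 0.13), and Stmn1 was at 0.08 (adjusted p = 0.923). Without Csf3r-/- library 2, 0 of 50 passed (median 0.29).

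The other named genes were H2-DMa, an MHC class II chaperone (0.62), the chemokine Cxcl2 (0.55), the selenium carrier Sepp1 (now Selenop; 0.41) and Mif4gd, a translation factor (0.40). DESeq2 called none of these 4, with adjusted p = 0.123, 0.126, 0.0991 and 0.056. Sepp1 was an abundant one, at 982, 136, 1037 and 1073 CPM against 491, 77.6, 890 and 928 CPM. As a ratio its excess was largest in the Csf3r+/+ libraries, although in CPM the gap was smallest in Csf3r+/+ library 2. Cxcl2 ranged from 17.4 to 381 CPM in Cd8b1+ cells and from 6.07 to 261 CPM in Cd8b1- cells, highest in Csf3r-/- library 2 in both.

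Genes of type 3 T cells, which respond to IL-23 and IL-1 and can make IL-17, gave mostly small positive values of which 1 passed the test. Of 20 listed genes, 17 had a log2 fold change above 0 (median 0.25), 1 rose and 0 fell, where 0.304% of all genes rose. That gene was Tmem176a, an ion channel-like membrane gene, with 1467, 148, 1346 and 1266 CPM against 818, 129, 1106 and 1146 CPM (0.31 ± 0.08; edgeR adjusted p = 0.0409). Its neighbour Tmem176b, whose annotated span overlaps that of Tmem176a, stood at 1850, 197, 1253 and 1281 CPM against 991, 181, 1134 and 1133 CPM (0.28 ± 0.08; adjusted p = 0.106). Both were higher in Cd8b1+ cells of all 4 libraries, and the step was widest in Csf3r+/+ library 1. DESeq2 called 0 of the 20 genes (adjusted p = 0.346 for Tmem176a). Il17a was at 7.46, 0, 303 and 1296 CPM against 10.8, 7.72, 222 and 1350 CPM, with no call (0.07 ± 0.11). The number of type 3 genes that passed in edgeR depended on the cells and libraries used. Without Csf3r+/+ library 1 it was 0 (median 0.10), and without Csf3r-/- library 2 it was 5 (median 0.37), while Tmem176a lost its call without Csf3r-/- library 1 (adjusted p = 0.181). It was also 5 without the cells of the top 5% of UMIs, without those with UMIs of other cell types, or without those with Cd8a (medians 0.33, 0.30 and 0.28), 3 in thinned cells, and 4 with Cd8b1- cells weighted by UMIs. Among cells with at least 2 Cd8b1 UMIs the median was -0.33, with 19 of 20 values below 0.

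**Figure D3:**
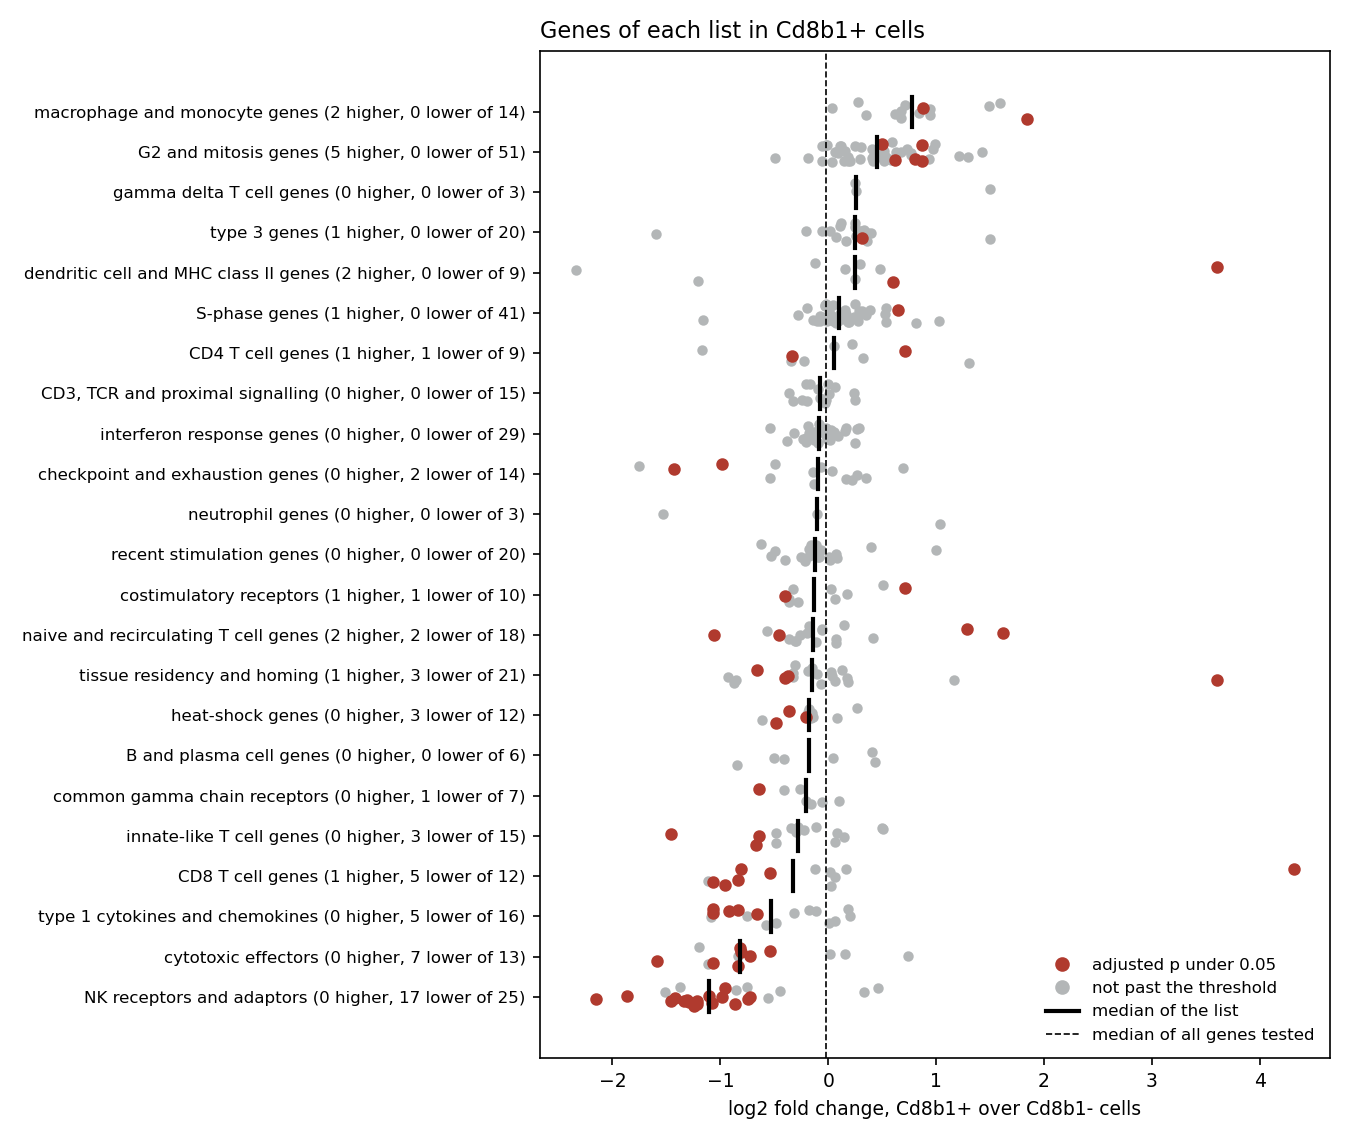
Log2 fold changes of Cd8b1+ over Cd8b1- cells for the tested genes of each list (points; red where the edgeR adjusted p is under 0.05), with each list's median (black bar) and the median of all genes tested (dashed line, at -0.02). NK receptors and adaptors lie farthest to the left, with 17 of 25 genes past the threshold.

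Of 12 listed genes typical of CD8 T cells, 1 rose and 5 fell, where 0.304% of all genes rose and 0.996% fell. The one that rose was Cd8a, and Ccl5, Nkg7, Ctsw, Xcl1 and Cd7 were lower (Cd7 by 0.96 on the log2 scale), while 6 did not pass. Among these 6 were Runx3, the factor that fixes the CD8 lineage (69.6, 81.4, 118 and 139 CPM against 96.2, 93.1, 112 and 134 CPM; -0.12 ± 0.10), and Itgae, the integrin of tissue-resident cells (0.02 ± 0.14). Of 9 tested CD4 T cell genes, Tnfrsf4 (OX40) rose by 0.71 (0.47 without Csf3r-/- library 2, adjusted p = 0.806) and Ikzf2 (Helios) fell by 0.34, a call lost in 3 of the 4 fits that left out 1 library. DESeq2 called neither (adjusted p = 0.296 and 0.294), and Cd4 itself was at 0, 0, 0 and 3.13 CPM. The 15 tested genes of CD3, T cell receptor and proximal signalling gave 0 calls in edgeR, with Cd3g at 2142 CPM in Cd8b1+ and 2133 CPM in Cd8b1- cells as means of the 4 libraries.

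Naive and recirculating genes moved in both directions. Of 18 tested, Dapl1 and Igfbp4 rose by 1.62 and 1.29, and Ly6c2 and Txk fell by 1.06 and 0.46 on the log2 scale. Of all genes tested, 0.304% rose and 0.996% fell. DESeq2 called Ly6c2 but not Txk (adjusted p = 0.219), whose edgeR call was also lost when either Csf3r-/- library was left out. For Dapl1 and Igfbp4 DESeq2 gave no adjusted p. Ly6c2, a surface protein of memory T cells, stood at 636, 1608, 714 and 337 CPM against 1826, 2218, 1405 and 718 CPM. Dapl1 stood at 7.46, 69.1, 16.4 and 16.7 CPM against 2.34, 15.8, 11.0 and 2.41 CPM, and with the cells that held Cd8a left out its log2 fold change was -0.10 (adjusted p = 0.988). Igfbp4, which binds insulin-like growth factors, stood at 24.9, 71.5, 3.46 and 10.4 CPM against 13.0, 11.2, 5.34 and 5.42 CPM, so it was lower in Cd8b1+ cells of Csf3r-/- library 1 and highest in Csf3r+/+ library 2. Both calls were lost without Csf3r+/+ library 2, with log2 fold changes of 1.37 for Dapl1 (edgeR adjusted p = 0.0885) and 0.47 for Igfbp4 (0.858). Ccr7, Lef1 and Tcf7 did not pass (0.42, -0.18 and -0.11).

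Homing and residency genes gave 4 calls of 21 in edgeR, where 1.30% of all genes were called, and 0 in DESeq2. DESeq2 gave Ccr9 no adjusted p. Rgs1 and Rgs2, regulators of G protein signalling, fell by 0.37 and 0.41 on the log2 scale (DESeq2 adjusted p = 0.186 and 0.0501). Rgs1 lost its call without Csf3r+/+ library 2 (-0.27; edgeR adjusted p = 0.093). Cxcr3 is given above. Ccr9, the gut and thymus homing receptor, rose by 3.60 from low counts (0, 14.8, 3.46 and 10.4 CPM against 1.81, 0.833, 0.310 and 0.0669 CPM). The 10.4 CPM of Csf3r-/- library 2 were 10 UMIs in 1 cell, and the call was lost without Csf3r+/+ library 2 (3.37; edgeR adjusted p = 0.0658) and without Csf3r-/- library 2 (2.76; 0.144). Cxcr6, the list's most abundant gene, was at 1551, 390, 2462 and 2392 CPM against 1070, 317, 2165 and 2302 CPM, higher in all 4 libraries without passing (0.18 ± 0.06; edgeR adjusted p = 0.202). Of 15 tested innate-like T cell genes, Klrb1c, Il2rb and Plac8 (-0.67) fell, and Zbtb16, the gene of PLZF, did not pass (0.08 ± 0.12). Plac8 was higher in Cd8b1+ cells of Csf3r+/+ library 2 (409 against 374 CPM), DESeq2 did not call it (adjusted p = 0.997), and its edgeR call was lost without Csf3r+/+ library 1 or Csf3r-/- library 1. Cd160 (-0.99) and Cd244 (-1.43), receptors shared with NK cells, fell among 14 checkpoint genes, whereas Pdcd1 (PD-1) did not pass (-0.06 ± 0.13). The call of Cd244 was lost without Csf3r+/+ library 1 (edgeR adjusted p = 0.199) or Csf3r-/- library 1 (0.116), and DESeq2 gave this gene no adjusted p. Tnfrsf18 (GITR) fell by 0.40 and Icos did not pass (0.18 ± 0.07) among 10 costimulatory receptors. Tnfrsf18 was level in Csf3r-/- library 2 (175 against 174 CPM), was not called by DESeq2 (adjusted p = 0.365) and lost its edgeR call without Csf3r+/+ library 1 or Csf3r-/- library 1. Heat-shock genes fell in 3 of 12 cases (Hspa1a by 0.36, Dnajb1 by 0.48 and Hspa8 by 0.21), of which DESeq2 called Hspa1a, and the call of Hspa8 was lost in 3 of the 4 fits that left out 1 library. The 20 tested genes of recent stimulation and the 29 of the interferon response gave 0 calls in edgeR.

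Macrophage genes were low in the Cd8b1+ cells, with 1 library as the exception. The 14 tested macrophage genes summed to 276, 197, 354 and 4010 CPM in Cd8b1+ cells and to 212, 453, 305 and 1655 CPM in Cd8b1- cells, led by Apoe (574 CPM as a mean). Csf3r-/- library 2 was far above the other libraries in both. Of the list, C1qa (0.88) and Csf1r (1.84) passed in edgeR, where 0.304% of all genes were higher. DESeq2 called 0 of 14 and gave Csf1r no adjusted p. The excess lay in few cells. Without the 28 Cd8b1+ cells that held Cd8a (and the Cd8b1- cells with it), 0 of 13 tested macrophage genes rose, 4 fell and the median was -1.11. Among cells with at least 2 Cd8b1 UMIs, 11 of 14 rose (median 2.13), where 61 of 10419 genes rose. In Csf3r-/- library 2 the 34 such cells held 3049 macrophage UMIs, 2595 of them in 3 cells. Csf1r, the receptor that defines macrophages, was at 0, 0, 2.59 and 52.2 CPM in Cd8b1+ cells, and C1qa stood at 2.49, 4.93, 17.3 and 297 CPM against 3.41, 25.8, 20.6 and 107 CPM. Without Csf3r-/- library 2, 0 of 11 tested macrophage genes passed in edgeR and the median was -0.31. Genes of dendritic cells and MHC class II summed to 452, 750, 1054 and 2840 CPM against 470, 746, 981 and 1549 CPM. H2-Eb1 (0.60) and Ccr9 passed among 9 (0 by DESeq2, which gave Ccr9 no adjusted p), both without a call when Csf3r-/- library 2 was left out. The 6 tested B cell genes and the 3 tested neutrophil genes gave 0 calls in edgeR. In all Cd8b1+ cells 8 of 12 neutrophil genes and 9 of 14 fibroblast and sarcoma genes were at 0, against 2 and 0 in Cd8b1- cells. The Cd8b1- sums held far more UMIs, so these counts of genes at 0 are not like for like. Neutrophil genes summed to 0, 9.87, 6.92 and 14.6 CPM against 9.80, 17.8, 4.41 and 13.4 CPM. B and plasma cell genes summed to 42.3, 86.3, 61.4 and 23.0 CPM against 15.7, 18.7, 91.2 and 20.9 CPM. Among genes of γδ T cells, which the sort removed, 3 could be tested and 0 passed (Cd163l1 at 49.7, 0, 16.4 and 3.13 CPM against 3.73, 1.49, 7.20 and 4.88 CPM). In some alternatives 1 of the 3 rose, among them the thinned cells and the fit without cells with UMIs of other cell types. With the cells that held 2 or more UMIs of macrophage, B cell, neutrophil and fibroblast genes left out, 171 genes were called, 116 of them among the 141. Of the lists, 19 of 25 NK receptor genes then fell (median -1.27), 9 of 13 cytotoxic and 7 of 16 type 1 genes fell, and 10 of 51 G2 and mitosis genes rose (median 0.80).

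Seen cell by cell, Tmem176b and Cxcr6 were detected in most Cd8b1+ cells of 3 libraries and in fewer of those of Csf3r+/+ library 2. At 1500 UMIs per cell, a Tmem176b UMI was found in 83.0%, 22.0%, 77.1% and 80.1% of Cd8b1+ cells and in 51.4%, 19.7%, 70.1% and 73.8% of Cd8b1- cells. Cxcr6 was found in 81.2%, 30.8%, 90.6% and 88.2% against 65.1%, 32.2%, 82.9% and 86.2%. Klrd1 went the other way, with 8.93%, 49.5%, 7.21% and 9.15% against 34.0%, 56.5%, 15.8% and 15.5%. Gzmb was found in 14.3%, 28.6%, 7.84% and 16.3% against 35.2%, 40.7%, 13.9% and 17.5%, lower in Cd8b1+ cells of every library. The barcodes without Cd3 genes, as a background, gave 27.9% for Tmem176b, 7.69% for Cxcr6, 16.8% for Klrd1 and 13.5% for Gzmb, so that the shares of Klrd1 and Gzmb in Cd8b1+ cells of 3 libraries were at, near or under the level in these barcodes. The same held for both genes in the Cd8b1- cells of the 2 Csf3r-/- libraries, and for Tmem176b in both kinds of cell of Csf3r+/+ library 2. Unthinned means were 75.0% and 61.8% for Tmem176b in Cd8b1+ and Cd8b1- cells, and 26.7% and 39.4% for Klrd1.

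Il17a, the gene of IL-17A, was found in 0.893%, 0%, 14.7% and 42.5% of Cd8b1+ cells and in 1.13%, 0.311%, 10.4% and 39.0% of Cd8b1- cells. Both kinds of cell were low in the Csf3r+/+ and high in the Csf3r-/- libraries. Pdcd1 and Icos were likewise highest in Csf3r-/- library 2, with Icos in 34.8%, 35.2%, 59.2% and 74.5% of Cd8b1+ cells. Lef1 was most frequent in Csf3r+/+ library 2 in both kinds of cell, with 1.79%, 22.0%, 2.82% and 3.92% of Cd8b1+ cells and 8.04%, 17.4%, 4.27% and 4.55% of Cd8b1- cells.

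**Figure D4:**
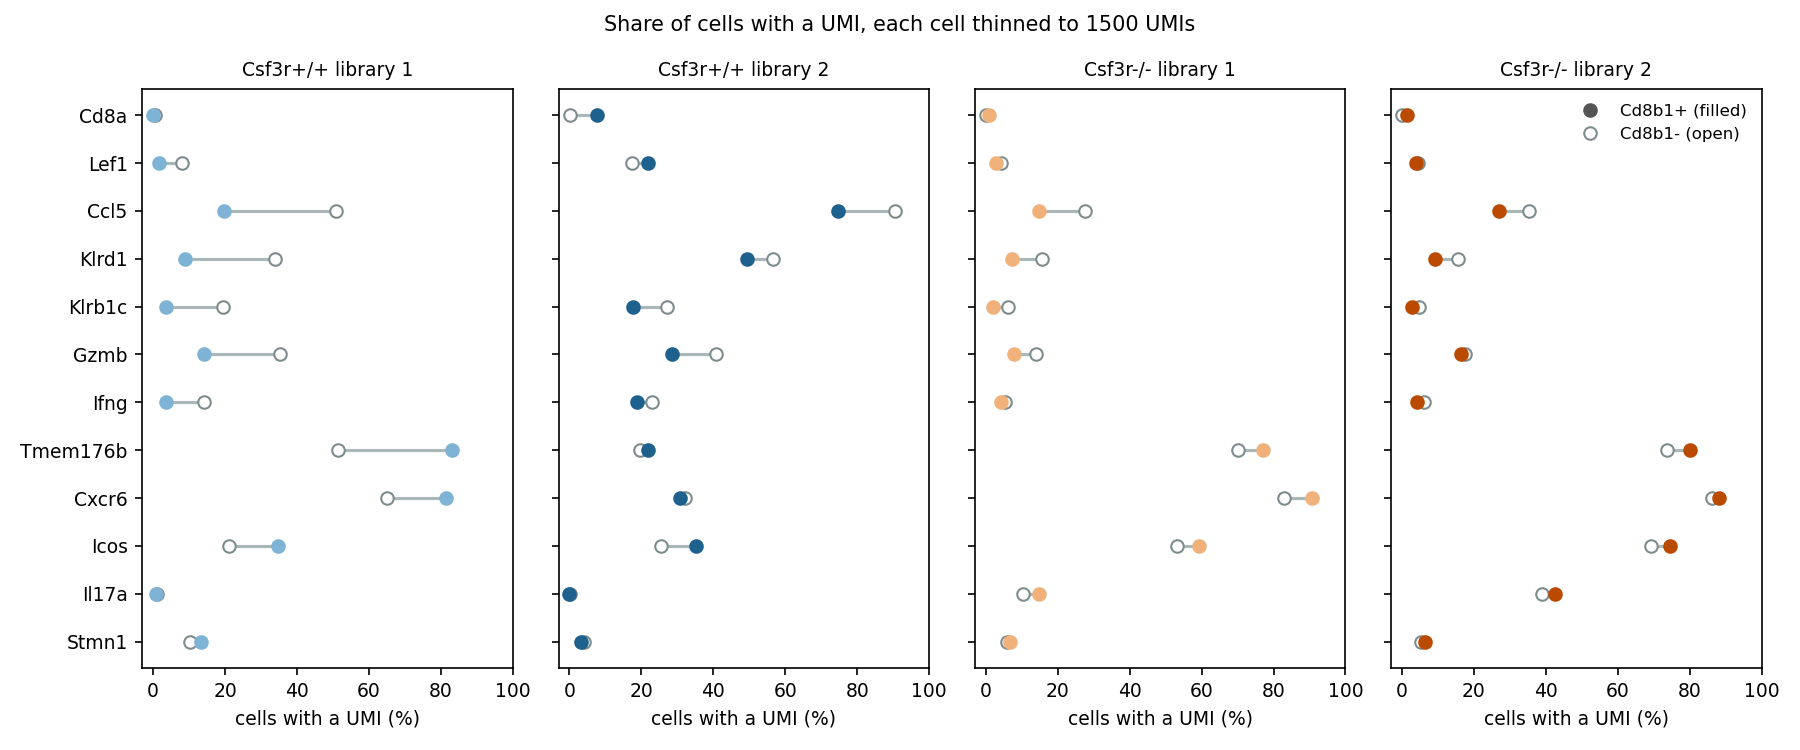
Percent of Cd8b1+ cells (filled) and Cd8b1- cells (open) with a UMI of each gene in each of the 4 libraries, every cell thinned to 1500 UMIs. Tmem176b lies at 77.1% or more of Cd8b1+ cells in 3 libraries and at 22.0% in Csf3r+/+ library 2, where Klrd1 lies at 49.5%.

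Few Cd8b1+ cells held both Klrd1 and Tmem176b. Of 828 Cd8b1+ cells deep enough for thinning, 578 held Tmem176b without Klrd1, 80 Klrd1 without Tmem176b, 26 both and 144 neither. In Csf3r+/+ library 2 the balance was turned, with 43 of 91 cells holding Klrd1 alone and 18 Tmem176b alone, against 9 and 92 of 112 cells in Csf3r+/+ library 1. Gzmb and Tmem176b were found together in 64 cells, Gzmb alone in 53 and Tmem176b alone in 540.

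The same relation can be read as the share of Cd8b1+ cells among cells with and without another transcript. Here the other transcript was read at 1500 UMIs per cell and Cd8b1 at full depth. Among cells with a Klrd1 UMI at 1500 UMIs, 1.09%, 1.29%, 3.25% and 3.20% were Cd8b1+, and among cells without one 5.49%, 1.70%, 7.50% and 5.69%. For Ccl5 the values were 1.60%, 1.21%, 3.78% and 4.14% with it, and 6.43%, 3.86%, 7.97% and 5.94% without it. Cells with either transcript were less often Cd8b1+ in all 4 libraries. For Tmem176b the order was turned, with 6.37%, 1.64%, 7.49% and 5.74% against 1.45%, 1.43%, 5.34% and 4.10%. In Csf3r+/+ library 2 the shares by Tmem176b were nearly level.

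**Figure D5:**
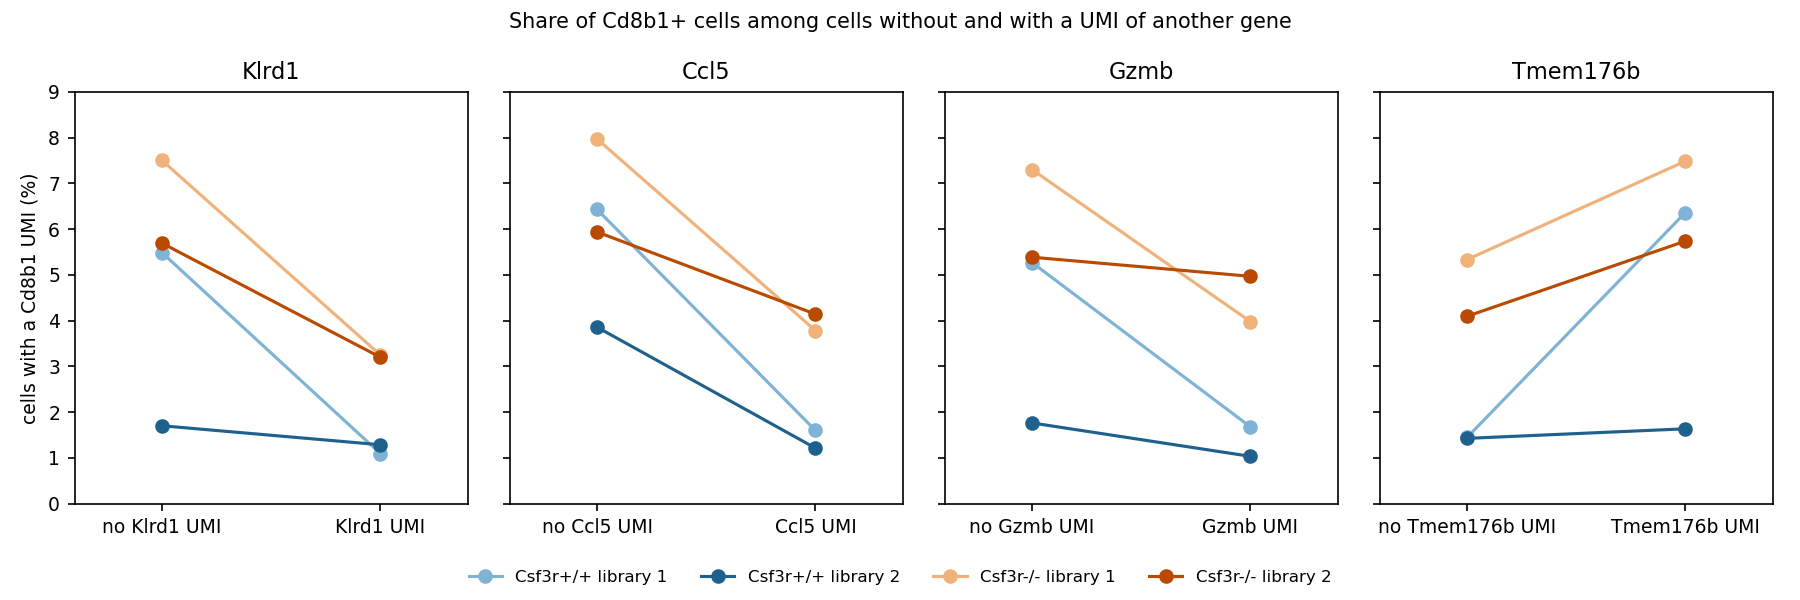
Percent of cells with a Cd8b1 UMI among Cd3e+ Foxp3- cells without and with a UMI of Klrd1, Ccl5, Gzmb or Tmem176b, 1 line per library. The other gene was read at 1500 UMIs per cell and Cd8b1 at full depth. All lines fall for Klrd1, Ccl5 and Gzmb and rise for Tmem176b, and those of Csf3r+/+ library 2 change least for Klrd1 and Tmem176b.

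The last comparisons concerned the genotypes. Whether Cd8b1+ cells differed from Cd8b1- cells by the same amount in Csf3r+/+ and Csf3r-/- sarcomas was tested as an interaction, which passed for 10 of 10845 genes (0.0922%) in edgeR. Lmo4, a transcriptional adaptor of the LIM family, stood at 378, 170, 380 and 382 CPM in Cd8b1+ cells and at 192, 72.3, 391 and 376 CPM in Cd8b1- cells, so that it was raised in Cd8b1+ cells of the Csf3r+/+ libraries and level in the Csf3r-/- libraries (interaction -1.05 ± 0.15 on the log2 scale; edgeR adjusted p = 0.000671). It was the only gene that DESeq2 also called. Ifitm3, an antiviral membrane protein, stood at 54.7, 27.1, 112 and 71.0 CPM against 152, 198, 105 and 88.3 CPM, lower in Cd8b1+ cells mainly of the Csf3r+/+ libraries (2.05 ± 0.28). Its relative Ifitm2 was at 2.49, 0, 12.1 and 35.5 CPM against 37.4, 53.9, 9.05 and 42.9 CPM. Apoe and Ccl1, the further genes among the 5 with the smallest adjusted p, took their high values from Csf3r-/- library 2, with Apoe at 7.46, 27.1, 81.3 and 2180 CPM in Cd8b1+ cells and Ccl1 at 0, 19.7, 0 and 205 CPM.

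Within the Cd8b1+ cells, 0 of 6174 genes (0%) differed between Csf3r-/- and Csf3r+/+ by edgeR at an adjusted p under 0.05, where 594 had an unadjusted p under 0.05 and DESeq2 called 75 (13 higher and 62 lower in Csf3r-/-). With 2 libraries a genotype, and with Csf3r+/+ library 2 far from library 1, the spread within genotypes was wide. Il17a gave a log2 difference of 7.63 ± 1.15 (edgeR adjusted p = 0.0952), Pdcd1 one of 3.03 ± 0.88 (0.356) and Ccl5 one of -2.51 ± 0.54 (0.199). Klrd1 was lower in the Csf3r-/- libraries (102 and 96.1 CPM against 134 and 567 CPM) without passing (-1.99 ± 0.69; 0.443), and Cd8a did not differ beyond its spread (-1.14 ± 1.12; 0.819). Leaving out Csf3r+/+ library 1, Csf3r-/- library 1 or Csf3r-/- library 2 gave 209, 127 and 83 calls, and leaving out Csf3r+/+ library 2 gave 0, each with a lone library assumed to vary like the others.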

How the data were processed

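Single-cell 3′ libraries of sorted UTCαβ from 4 sarcoma samples were analysed. According to the methods, the authors aligned reads to mm10 with Cell Ranger and joined each genotype's libraries by its aggregate step, whose depth setting is not given in the sources used here. The submitters' processing notes also name bcl2fastq, R 3.4.4 and Seurat 2.3.4. The deposited values are raw UMI counts per gene and barcode, with no normalization. Libraries were separated by the number after each barcode, and 0 columns were not used. Of 32525 barcodes, 21372 held a Cd3e UMI, fewer than the methods give for that filter, and 21342 of these met the limits of gene number, UMI number and mitochondrial share (13 genes).

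UMIs were summed per library over Cd8b1+ and Cd8b1- cells, with at least 20 cells per sum in the main fit. Some alternatives left fewer Cd8b1+ cells in a library. Csf3r+/+ library 1 had 13 with at least 2 Cd8b1 UMIs and 16 without Tmem176b, and Csf3r+/+ library 2 had 6 with at most 2 UMIs of cell-cycle genes. These alternatives therefore say little about that library. Sums were tested in R 4.3.3 with edgeR 4.0.16 (TMM, filterByExpr, quasi-likelihood test, library as a block), Benjamini-Hochberg adjusted over all genes, threshold 0.05. Cd8b1, Cd3e and Foxp3 were left out of the tests, and Cd8a was tested. DESeq2 1.42.0 was an alternative. The scripts were tested on simulated data. A planned comparison with Cd8a+ Cd8b1- cells could not be fitted, because the libraries held 17, 13, 12 and 8 of them.

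Named genes were the 10 highest and 10 lowest log2 fold changes past the threshold, in 1 direction in all 4 libraries and with at least 50 CPM in the higher class, the 5 interaction genes of smallest adjusted p, and examples from the gene lists. The members and the lists were chosen with earlier results of these data known, and members of a list are therefore no independent evidence of its direction. Detection shares were taken after thinning each cell to 1500 UMIs, for which 1699 cells, 70 of them Cd8b1+, were too shallow. No doublet caller was run; the limit of 20000 UMIs was kept, and cells of the top 5% of UMIs or with 2 or more UMIs of other cell types were left out in alternatives. Exact binomial intervals are at 95%. A count of 0 allows up to 3 counts of the total. Other alternatives were no filter on low counts, at least 2 Cd8b1 UMIs, the upper gene limits of the methods (3500 and 4000), each library left out, no block, and Cd8b1- cells weighted to UMI quintiles. Those without cells that held Cd8a, with or without Tmem176b, and without cells that held more than 2 UMIs of cell-cycle genes were chosen after seeing the data. Results on some genes are not reported here. Gene places are from GENCODE vM21 (27645 of 27998 genes found).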

Additional observations from a re-analysis of the deposited data

Results flagged for a closer look

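The first values below were singled out because 1 of 4 libraries lay far from the other 3, by the critical gap of Dixon's test at the 95% level. Of 84 such values examined, 16 did so, while chance gives about 5 percent, and most concern the same library.

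Csf3r+/+ library 2 stood apart in its Cd8b1+ cells. Cd8a was found in 15.2% of them against 0 to 2.33% in the other libraries, and in 7.69% at 1500 UMIs per cell. At that depth the naive T cell genes Lef1 (22.0%) and Dapl1 (7.69%) were high in this library, as were Klrd1 (49.5%), Klra7 (33.0%), Klrb1c (17.6%), Klra9 (16.5%), Fcer1g (25.3%) and Ifng (18.7%). Tmem176a (20.9%), Tmem176b (22.0%) and Cxcr6 (30.8%) were low in it. In the Cd8b1- cells of that library Tmem176b (19.7%) and Cxcr6 (32.2%) were the lowest of the 4 libraries as well, Lef1 (17.4%) was the highest, and Klrd1 (56.5%) was the highest too, followed by Csf3r+/+ library 1 (34.0%).

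In Csf3r+/+ library 1, Tmem176b was 0.90 higher in Cd8b1+ than in Cd8b1- cells (log2 of CPM plus 1), against 0.12 to 0.18 in the other libraries. In Csf3r-/- library 2, 3.59% of Cd8b1+ cells held C1qa (at most 1.25% elsewhere) and 0.98% held Cd4 (0 elsewhere).

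The contrast of Cd8b1+ with Cd8b1- cells differed between the genotypes for 10 genes by the interaction test of edgeR. On the log2 scale, Csf3r-/- minus Csf3r+/+, the difference was 6.47 for Ccl1, 5.13 for Ifitm2, 3.92 for Apoe, 2.05 for Ifitm3 and 0.60 for Ifi27l2a. It was -1.11 for 5430421N21Rik, -1.05 for Lmo4, -0.99 for Avpi1, -0.76 for Ramp1 and -0.69 for Sepp1. Ccl1, Ifitm2 and Apoe rest on sums with 0 or few UMIs or on Csf3r-/- library 2.

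Outside the cells compared, 26 of 263 cells with a Foxp3 UMI also held Cd8b1 (9.89%). The share was 4.26% in the cells without Foxp3 (1.45 to 6.68% by library), and 0 of 290 barcodes without Cd3 genes held Cd8b1. By library the Foxp3+ cells with Cd8b1 were 1 of 7, 12 of 127, 3 of 22 and 10 of 107, where 4.06%, 1.45%, 6.68% and 5.12% of the cells without Foxp3 held it. Cells with and without Foxp3 were not matched for depth.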

How the results depend on the processing

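Of 758 log2 fold changes of 46 named genes under the alternatives, 532 kept their direction and side of the threshold, 200 kept the direction but lost the call, 6 gained one and 20 reversed. DESeq2 gave no adjusted p for 7 more (Cd8a, Dapl1, Igfbp4, Ccr9, Gzma, Tacc3 and Csf1r). The count of genes that differed between Cd8b1+ and Cd8b1- cells was 141, and ranged from 82 to 148 when each library was left out (82 without Csf3r-/- library 1). It was 37 by DESeq2, 298 with no filter on low counts, 213 without the cells of the top 5% of UMIs, 77 in cells with a Tmem176b UMI and 84 in cells without one. Without cells that held more than 2 UMIs of S-phase, G2 and mitosis genes it was 26, and few cells remained (23, 6, 40 and 81 Cd8b1+ cells). This limit took out most Cd8b1+ and Cd8b1- cells of every library, so it did not set dividing cells apart. With no block for the library, which pairs the sums of 1 library, the count was 0. For the interaction the count was 10, and 1 by DESeq2, 56 with no filter, 32 with at least 2 Cd8b1 UMIs and 28 without the top 5% of UMIs. At 2 or more Cd8b1 UMIs, Csf3r+/+ library 1 had 13 Cd8b1+ cells, under the minimum of 20 per sum. The Csf3r+/+ side of that interaction therefore rests on few cells, and the 32 is no firm count. Between genotypes within Cd8b1+ cells it was 0, and 75 by DESeq2, 361 with no filter and 0 to 209 when each library was left out. The number after the barcode as a replicate block gave 88; same-numbered libraries deviated together (r = 0.23 across 5023 genes), but with 2 pairs and no label behind the numbers this is not taken as a pairing. The difference in the share of Cd8b1+ cells was 3.15 percentage points, and 1.85 to 4.45 when each library was left out, 2.39 thinned and 0.376 for at least 2 UMIs. The excess of cells with Cd8a was 2.31 points thinned, 4.52 unthinned and 20.2 at 2 or more Cd8b1 UMIs, and without Csf3r+/+ library 2 these were 0.538, 1.02 and 8.69. Leaving out each library gave 0.538 to 3.21 thinned, an alternative chosen after seeing the data.

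Reversals were found in cells without Tmem176b (H2-DMa -0.18, Cxcl2 -0.65, Sepp1 -0.023, C1qa -1.22, H2-Eb1 -1.87, Capg -0.28), with at least 2 Cd8b1 UMIs (Mif4gd -0.092, Tmem176a -0.14, Tmem176b -0.18, Tnfrsf4 -0.79, Capg -0.40), without cells over the limit of cell-cycle UMIs (Tnfrsf4 -2.01, H2-Eb1 -1.14), without Cd8a+ cells (Dapl1 -0.10, C1qa -1.16, Csf1r -0.052), in cells with Tmem176b (Igfbp4 -0.24), by DESeq2 (C1qa -0.27), without cells of other types (C1qa -0.095), without Csf3r-/- library 2 (C1qa -0.73, and 1.07 as the other end of the range when each library was left out) and without the top 5% of UMIs (Ccl1, interaction -5.91). The cause was not tested. Most Cd8b1+ cells rest on 1 UMI, so depth limits which cells are found, and 92 to 347 cells a library limit the precision of low genes.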

Other observations

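A few gene families outside the lists were looked at after their values were seen, so their counts are descriptions. The Gimap genes, GTPases of lymphocyte survival, gave 5 genes lower and 0 higher in Cd8b1+ cells by the edgeR test among 8 tested, where 0.996% of all genes were called lower. Their log2 fold changes ran from -0.73 to -0.21 (median -0.42). Among 81 ribosomal protein genes, 79 values were below 0, with 11 lower and 0 higher by the test and a median of -0.14 against -0.02 for all genes.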
